A study of Mus musculus with 12 samples.

Results

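The genes followed here, in cultured mouse microglia, carry signals between antigen-presenting cells and T cells. They are 8 of the 52636 gene identifiers in the deposited count table. They were taken by symbol, from the GENCODE M21 annotation of GRCm38, and no measured value entered that rule. The set was chosen with earlier results of these data known. Cd80, Cd86, Icosl, Cd274 and Pdcd1lg2 encode ligands of the B7 family, Cd83 encodes a surface protein of activated presenting cells, and Cd40 encodes a receptor through which T cells activate the presenting cell. Cd28 stands apart from them, since CD28 is the receptor for CD80 and CD86 and is best known from T cells themselves.

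A T cell that meets its antigen on an MHC molecule needs costimulation in order to respond. CD80 and CD86 provide it by binding CD28, and they also bind the inhibitory receptor CTLA-4. ICOS ligand acts through ICOS, while PD-L1 (gene Cd274) and PD-L2 (gene Pdcd1lg2) bind PD-1 and hold T cells back, which is why they are called checkpoint ligands. CD40 answers to CD40 ligand on helper T cells, and CD83 keeps MHC class II molecules and CD86 at the cell surface by opposing the ubiquitin ligase MARCH1. In the brain, CD40, CD86 and PD-L1 are widely used as signs of microglial activation.

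The cells were wild-type C57BL/6 microglia shaken off mixed glial flasks of postnatal day 1 to 2 brains after 10 to 13 days, in medium with serum. Each well took 50000 cells and 2.5 ng CSF1, a growth factor on which microglia depend, and all 3 groups shared these conditions. One group received 5 µg of full-length neurofilament light chain (FL-NfL) for 24 h, one received 5 µg of the coiled-coil part of that protein (CC-NfL) for 24 h, and one received vehicle. NfL is a structural protein of axons. Each group had 4 libraries, and each of the 4 labelled batches held 1 library of each group. The labels do not say whether batches were separate cultures or litters, and every p-value here reflects the spread of these libraries alone, which may be technical.

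Depth ran from 20162427 to 31048044 reads per library. Of 14687 genes tested with edgeR's quasi-likelihood test, FL-NfL changed 24.9% against vehicle at an adjusted p below 0.05 (14.0% higher, 10.9% lower), and CC-NfL changed 0%. FL-NfL against CC-NfL gave 2.72% (1.38% higher, 1.34% lower). The higher genes were 56.4% of the calls of FL-NfL against vehicle, and 45.78% with upper-quartile scaling. Microglial markers had reads in every library, at levels that differed widely between markers. Csf1r averaged 2914 CPM (counts scaled to library size with TMM factors) with FL-NfL, 3861 CPM with CC-NfL and 3929 CPM with vehicle. Tmem119 averaged 19.2, 14.6 and 11.6 CPM in the same order of groups, and Sall1 14.3, 17.8 and 19.6 CPM. All 11 markers of the list passed the filter on low counts (2 were called higher and 4 lower in FL-NfL against vehicle, 5 and 5 with batch as a block in the model). Aif1 was among those higher (log2 fold change 1.83) and Trem2 among those lower (-1.62). In FL-NfL against CC-NfL, 1 marker was called, Trem2, which was lower (-1.14, edgeR adjusted p = 0.0139).

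Of the 8 genes, 7 passed the filter on low counts and Pdcd1lg2 did not. In FL-NfL against vehicle 1 gene rose (Cd274) and 2 fell (Cd28, Cd83), beside 24.9% of all genes called. Their median log2 fold change was -0.45 over the 7, against -0.02 over all genes. With the batch as a block in the model, 2 rose (Cd274, Cd40) and 4 fell (Cd28, Cd83, Cd86, Cd80), beside 43.8% of all genes (21.4% higher, 22.4% lower). DESeq2 called 2 higher (Cd274, Cd40) and 2 lower (Cd28, Cd83), beside 29.2% of all genes (15.8% higher, 13.4% lower). In 3 of the 7 the FL-NfL and vehicle groups did not overlap, as in 25.8% of all genes.

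CC-NfL against vehicle called none of the 7, beside 0.0% of all genes. With the block that background was 0.0136% (0.00681% higher, 0.00681% lower) and with DESeq2 0.116% (0.0953% higher, 0.0204% lower). FL-NfL against CC-NfL called 2 of the 7, Cd274 higher and Cd28 lower, beside 2.72% of all genes. With the block it called 2 higher (Cd274, Cd40) and 3 lower (Cd28, Cd83, Cd80), beside 19.1% of all genes (8.99% higher, 10.1% lower). DESeq2 called 1 higher and 2 lower, beside 8.9% of all genes (4.96% higher, 3.94% lower). The groups did not overlap in 3 of the 7 between FL-NfL and CC-NfL, as in 12.5% of all genes, and in 0 of the 7 between CC-NfL and vehicle, as in 2.72%.

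**Figure D1:**
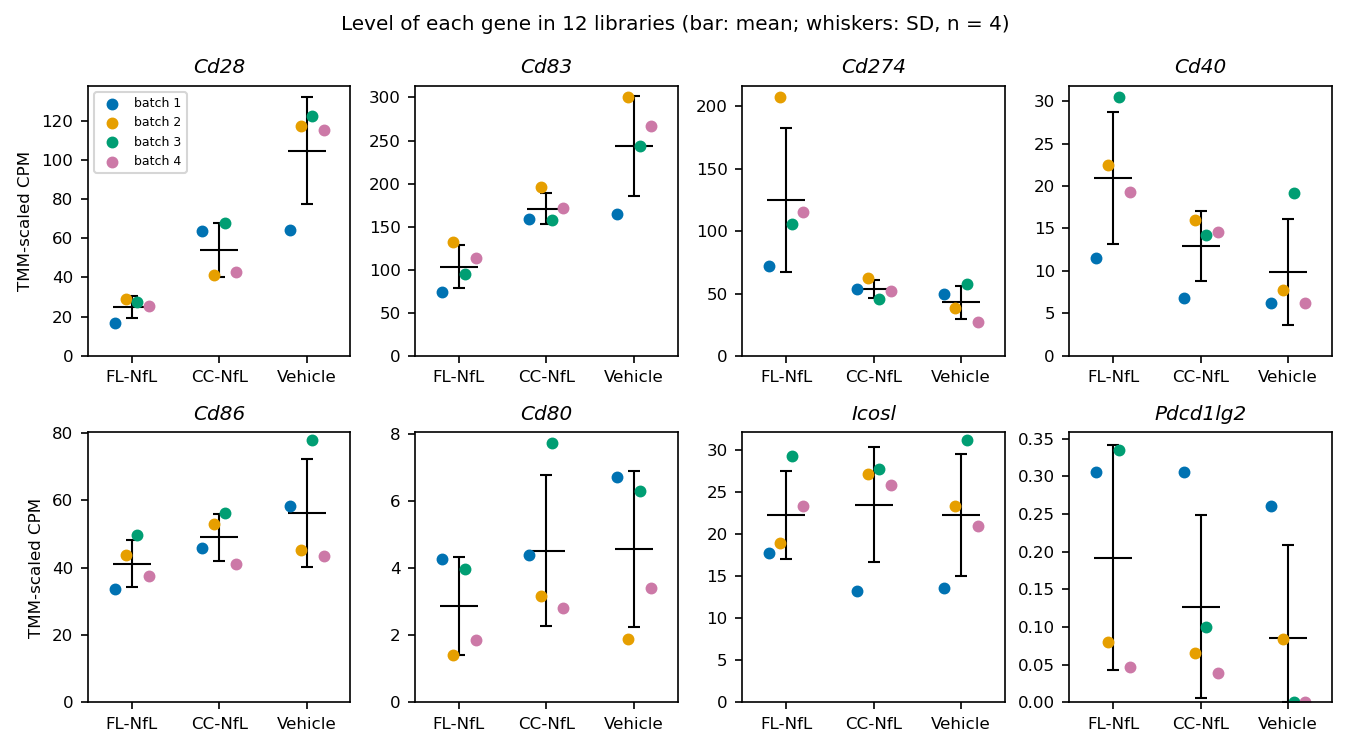
TMM-scaled CPM (vertical axis, linear, starting at 0) of each of the 8 genes in FL-NfL, CC-NfL and vehicle libraries, with 1 point per library coloured by batch, the mean as a bar and the SD as whiskers (n = 4; the lower whisker of Pdcd1lg2 with vehicle stops at 0). Cd28 and Cd83 lie lowest with FL-NfL and highest with vehicle by their means, and Cd274 lies highest with FL-NfL.

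Levels between genes can be compared only per length of exon, as CPM per kilobase (RPKM). On that scale Cd83 was the most abundant, at a mean of 67.2 RPKM over the 12 libraries and rank 573 of the 14687 genes tested. Cd274 followed at 20.4 RPKM (rank 2271), Cd86 at 13.3 (rank 3386) and Cd28 at 9.99 (rank 4301). Icosl stood at 4.91 RPKM, Cd40 at 4.27, Cd80 at 1.08 (rank 10533) and Pdcd1lg2 at 0.0689. The order depended on the treatment: with FL-NfL, Cd83 (40.3 ± 9.84 RPKM, SD, n = 4) and Cd274 (34.5 ± 16.0 RPKM) lay within each other's spread, whereas with vehicle Cd83 (94.9 ± 22.5 RPKM) stood well above Cd28 (17.1 ± 4.44), Cd86 (15.4 ± 4.35) and Cd274 (11.9 ± 3.67), which were within their spread of each other. Exon lengths were unions over all annotated transcripts, so a gene with long unused exons is understated.

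The receptor Cd28 (ENSMUSG00000026012, GRCm38 chr1:60716800-60773359, plus strand) changed most. Its libraries held 16.5, 29.3, 27.8 and 25.7 CPM with FL-NfL (replicates 1 to 4), 63.8, 41.2, 67.8 and 42.9 CPM with CC-NfL, and 64.2, 117.5, 122.2 and 115.0 CPM with vehicle. All 4 FL-NfL libraries lay below all CC-NfL and all vehicle libraries, while CC-NfL and vehicle overlapped through vehicle replicate 1. Means were 24.8 ± 5.71 CPM with FL-NfL, 53.9 ± 13.8 CPM with CC-NfL and 104.7 ± 27.2 CPM with vehicle (SD, n = 4 each). Cd28 fell with FL-NfL against vehicle, with a log2 fold change of -2.08 ± 0.25 (SE; edgeR adjusted p = 0.000483), to 0.237 of the vehicle level. It ranked 66 of 14687 genes by p in that comparison.

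The fall of Cd28 with FL-NfL was much alike in the 4 batches, at -1.96, -2.01, -2.14 and -2.16 (log2 ratio of CPM within batches 1 to 4). It also fell against CC-NfL, with a log2 fold change of -1.12 ± 0.24 (adjusted p = 0.0386; 0.00558 with the batch as a block). That call was lost on leaving out CC-NfL replicate 1, 3 or 4, FL-NfL replicate 2 or 4, or vehicle replicate 2 or 4, with log2 values of -1.21 to -0.99. CC-NfL against vehicle gave -0.96 ± 0.24, with a 95% interval of -1.5 to -0.42, an unadjusted p of 0.00168 and an adjusted p of 0.621 over all genes (0.0986 with the block). Within batches, that difference was -0.01 in batch 1 and -1.51, -0.85 and -1.42 in batches 2 to 4. The lowest vehicle library was that of batch 1.

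Since CD28 marks T cells, the other genes of T cells were read beside it. Cd28 held 487 to 3042 reads in every library and 17816 reads in all. Cd3d, Cd3e, Cd3g and Cd8b1, which encode chains of the T cell receptor complex and of CD8, had 0 reads in all 12 libraries. A count of 0 allows up to 0.0966 CPM in the deepest library and 0.149 CPM in the shallowest (3 reads, counting error only). Zap70 and Cd247 had 1 read each over the 12 libraries, and Cd2 had 2. Of the 11 T cell markers, 2 passed the filter: Cd4, which averaged 6.54 CPM with FL-NfL, 9.34 CPM with CC-NfL and 5.89 CPM with vehicle, and Lck at 1.13, 1.24 and 1.36 CPM in the same order of groups. The summed level of the list was 5.46 to 9.30 CPM with FL-NfL, 8.02 to 12.1 CPM with CC-NfL and 5.40 to 10.2 CPM with vehicle, and neither tested marker was called. The neighbouring receptor genes of the same family were far lower than Cd28, with 3 reads of Ctla4 and 201 reads of Icos over the 12 libraries.

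**Figure D2:**
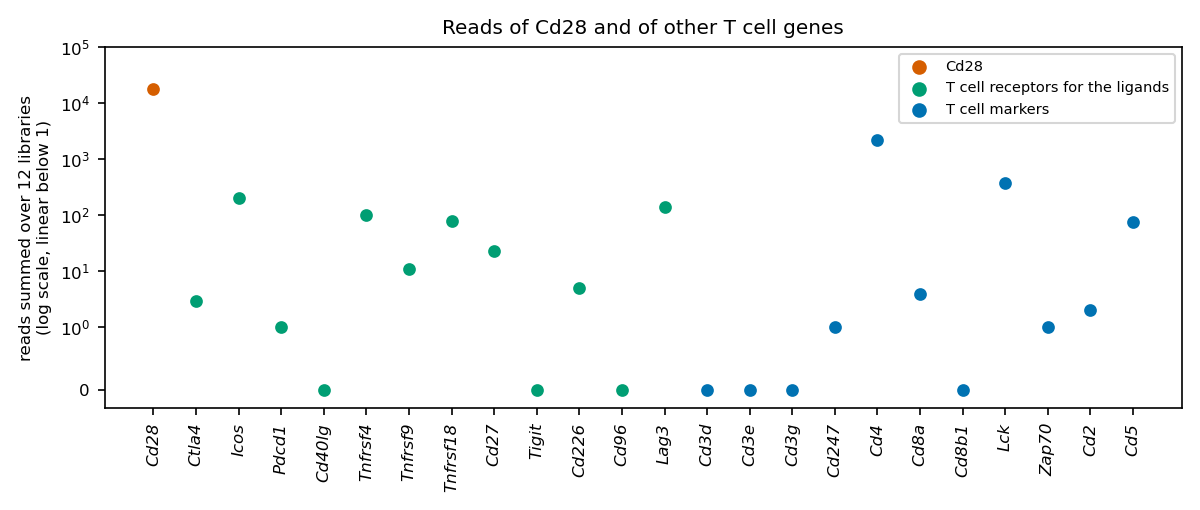
Reads summed over the 12 libraries (vertical axis, log scale, linear below 1) of Cd28, of 12 other T cell surface genes that pair with ligands of this kind, and of 11 T cell markers. Cd28 stands at 17816 reads, Cd4 at 2172 and Icos at 201, and Cd3d, Cd3e, Cd3g, Cd8b1, Cd40lg, Tigit and Cd96 at 0.

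Of the 12 other T cell surface genes that pair with ligands of this kind, 3 passed the filter (Icos, Tnfrsf4 and Lag3) and none was called in any of the 3 comparisons, with or without the block. Pdcd1, which encodes PD-1, had 1 read over all libraries, and Cd40lg, which encodes CD40 ligand, had 0. Icos averaged 0.853 CPM with FL-NfL, 0.565 CPM with CC-NfL and 0.603 CPM with vehicle.

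Cd83 (ENSMUSG00000015396, chr13:43784775-43803132, plus strand) was the other gene that fell. It had 73.6, 132.4, 94.7 and 114.2 CPM in the FL-NfL libraries, 158.6, 195.9, 157.2 and 171.7 CPM in the CC-NfL libraries, and 164.7, 301.1, 243.7 and 266.4 CPM in the vehicle libraries. FL-NfL did not overlap with either of the other groups, and CC-NfL overlapped with vehicle through vehicle replicate 1. The log2 fold change of FL-NfL against vehicle was -1.23 ± 0.20 (adjusted p = 0.00165), or 0.425 of the vehicle level. Within batches 1 to 4 it was -1.16, -1.19, -1.36 and -1.22, so the batches lay close together.

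FL-NfL against CC-NfL gave -0.72 ± 0.19 for Cd83, which missed the threshold (adjusted p = 0.0688) but passed it with the batch as a block (-0.75 ± 0.10, adjusted p = 0.00114). It also passed without vehicle replicate 1 (-0.72, adjusted p = 0.0440), with DESeq2 (0.0120) and among genes of at least 5 CPM (0.0487). CC-NfL against vehicle gave -0.51 ± 0.19 (95% interval -0.95 to -0.08; adjusted p = 0.662, and 0.0986 with the block), with -0.05 in batch 1 and -0.62, -0.63 and -0.63 in batches 2 to 4.

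Of the checkpoint ligands, Cd274 (ENSMUSG00000016496, chr19:29367455-29388095, plus strand), the gene of PD-L1, rose. Its libraries held 71.9, 207.3, 105.5 and 115.6 CPM with FL-NfL, 53.3, 62.8, 45.6 and 52.4 CPM with CC-NfL, and 49.6, 38.3, 57.3 and 26.8 CPM with vehicle. All 4 FL-NfL libraries lay above every other library, and CC-NfL and vehicle overlapped. Against vehicle, FL-NfL raised Cd274 by 1.54 ± 0.30 (log2; adjusted p = 0.00414), or 2.91-fold. The size differed between batches, at 0.54 and 0.88 in batches 1 and 3 and at 2.44 and 2.11 in batches 2 and 4. Batch 2 held the highest FL-NfL level (207.3 CPM), and batches 2 and 4 the lowest vehicle levels (38.3 and 26.8 CPM). Without single libraries the change ran from 1.19 to 1.74 and was called each time.

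Against CC-NfL, FL-NfL raised Cd274 by 1.22 ± 0.29 (adjusted p = 0.0496; 0.0124 with the block), with the same direction in 4 of 4 batches. This call was close to the threshold and was lost on leaving out any of 9 libraries (vehicle replicate 1 or 2, FL-NfL replicate 2, 3 or 4, and each CC-NfL library), with log2 values of 0.87 to 1.32. It was lost as well with limma voom (1.13, adjusted p = 0.0615) and in a fit of only those 2 groups (1.22, adjusted p = 0.0734). CC-NfL against vehicle gave 0.32 ± 0.29 (95% interval -0.35 to 0.98; adjusted p = 0.836; 0.15 to 0.49 without 1 library). In GENCODE M21, 511 bases of Cd274 exon overlap an antisense gene, AC119228.1, on the other strand. The strand setting of the counting is not given in the sources used here, so reads of that gene cannot be told apart from Cd274 if strand was not used.

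Pdcd1lg2 (ENSMUSG00000016498, chr19:29410919-29471161, plus strand), the gene of PD-L2, lies 22823 bases downstream of Cd274 and had hardly any reads. There were 9, 2, 8 and 1 reads with FL-NfL, 8, 2, 2 and 1 with CC-NfL, and 6, 2, 0 and 0 with vehicle. At 0 to 9 reads per library a change was not detectable at this depth. The ratio of Cd274 to Pdcd1lg2 reads, with 1 added to each, averaged 9.21 ± 1.51 on the log2 scale with FL-NfL, 8.57 ± 1.01 with CC-NfL and 8.84 ± 1.35 with vehicle (SD, n = 4 each). No difference was detected in any of the 3 pairs of groups by an exact two-sided permutation test (p = 0.486 to 0.743, adjusted p = 0.743 over 6 ratio comparisons; the smallest p for 4 against 4 is 0.0286). These ratios rest on the few reads of Pdcd1lg2, so the test does not show that the ratio stayed the same.

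The 300-base promoter windows of these neighbours, from 250 bases before to 50 after the RefSeq start (GRCm38.p6, plus strand, 5′ to 3′), are shown because 1 gene of the pair was abundant and rose while the other was near 0. Capitals mark a match to a motif searched on both strands. The window of Cd274 is chr19:29367188-29367487, and that of Pdcd1lg2 is chr19:29410669-29410968.
Cd274: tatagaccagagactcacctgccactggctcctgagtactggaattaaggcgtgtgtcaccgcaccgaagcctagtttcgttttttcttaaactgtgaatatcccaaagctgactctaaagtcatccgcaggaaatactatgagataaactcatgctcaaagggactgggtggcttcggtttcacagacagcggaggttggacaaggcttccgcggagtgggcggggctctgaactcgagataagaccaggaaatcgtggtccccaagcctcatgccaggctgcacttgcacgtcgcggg
Pdcd1lg2: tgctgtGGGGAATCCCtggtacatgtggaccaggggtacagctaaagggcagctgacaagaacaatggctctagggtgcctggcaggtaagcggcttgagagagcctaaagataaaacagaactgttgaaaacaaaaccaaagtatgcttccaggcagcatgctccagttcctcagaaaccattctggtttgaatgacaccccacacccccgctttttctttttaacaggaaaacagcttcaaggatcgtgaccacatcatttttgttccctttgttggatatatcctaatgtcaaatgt
The motifs were the STAT site TTCNNNGAA, the interferon response core (GAAA, any 2 bases, GAAA), the AP-1 site TGANTCA and the NF-kB consensus. They occur in 8.30%, 3.44%, 7.81% and 8.46% of all 32851 windows of this length. The Cd274 window held none of them in these letters, and the Pdcd1lg2 window held 1 NF-kB consensus match, beginning at position -244 from the start. The Cd274 window had 52.7% G and C with 15 CG dinucleotides, and the Pdcd1lg2 window 46.0% with 3. Windows were taken from the RefSeq table for 4 of the 8 genes (Cd80, Cd274, Pdcd1lg2 and Icosl), not for Cd28, Cd40, Cd83 and Cd86. A match describes letters only, and binding was not tested.

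Cd40 (ENSMUSG00000017652, chr2:165055627-165072948, plus strand), the receptor for CD40 ligand, was higher with FL-NfL than with vehicle in each batch but with a wide spread between batches. It had 11.6, 22.5, 30.4 and 19.3 CPM with FL-NfL, 6.83, 15.9, 14.2 and 14.6 CPM with CC-NfL, and 6.25, 7.71, 19.1 and 6.22 CPM with vehicle. The groups overlapped because vehicle replicate 3, at 19.1 CPM, lay above FL-NfL replicate 1. The log2 fold change of FL-NfL against vehicle was 1.09 ± 0.40 (95% interval 0.17 to 2.00), with an adjusted p of 0.0687 that missed the threshold. With the batch as a block it was 1.13 ± 0.22 and called (adjusted p = 0.00172), with 0.89, 1.54, 0.67 and 1.63 in batches 1 to 4. It was also called with DESeq2 (adjusted p = 0.0240), and on leaving out vehicle replicate 3 (1.64, adjusted p = 0.00663), FL-NfL replicate 1 (1.30, 0.0346) or CC-NfL replicate 1 (1.10, 0.0482).

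FL-NfL against CC-NfL gave 0.70 ± 0.40 for Cd40 (95% interval -0.21 to 1.60; adjusted p = 0.342), and 0.65 ± 0.21 with the block (adjusted p = 0.0496). Without 1 library it ran from 0.46 to 0.91 in the model without the block. CC-NfL against vehicle gave 0.39 ± 0.40 (95% interval -0.52 to 1.30; adjusted p = 0.859; 0.22 to 0.94 without 1 library, the highest without vehicle replicate 3), with differences of 1.05 and 1.23 in batches 2 and 4 against 0.13 and -0.43 in batches 1 and 3.

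The CD28 ligands Cd86 and Cd80 passed the test in none of the 3 comparisons, and both had lower means with FL-NfL than with vehicle. Cd86 (ENSMUSG00000022901, chr16:36603869-36666081, minus strand) had 33.8, 43.8, 49.6 and 37.6 CPM with FL-NfL, 45.8, 53.0, 56.3 and 41.0 CPM with CC-NfL, and 58.3, 45.1, 77.9 and 43.4 CPM with vehicle. The 3 groups overlapped. FL-NfL against vehicle gave -0.45 ± 0.19 (95% interval -0.87 to -0.03; adjusted p = 0.0957), lower in 4 of 4 batches at -0.79, -0.04, -0.65 and -0.21. It was called with the block (adjusted p = 0.0104), with upper-quartile scaling (-0.50, 0.0440) and among genes of at least 5 CPM (-0.49, 0.0445). Without vehicle replicate 3, the highest vehicle library, it was -0.25 (adjusted p = 0.246). Between CC-NfL and vehicle the log2 difference was -0.20 ± 0.18 (95% interval -0.61 to 0.22), and between FL-NfL and CC-NfL it was -0.25 ± 0.19 (-0.67 to 0.17).

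Cd80 (ENSMUSG00000075122, chr16:38455561-38496335, plus strand) was the scarcest gene tested of the set, with 35 to 157 reads per library. It had 4.28, 1.41, 3.98 and 1.85 CPM with FL-NfL, 4.39, 3.18, 7.72 and 2.80 CPM with CC-NfL, and 6.73, 1.89, 6.31 and 3.42 CPM with vehicle. Batches 1 and 3 were higher than batches 2 and 4 in all 3 groups, and the groups overlapped. FL-NfL against vehicle gave -0.66 ± 0.47 (95% interval -1.73 to 0.41; adjusted p = 0.321; -0.92 to -0.42 without 1 library). With the block it was called at -0.66 ± 0.21 (adjusted p = 0.0232), with -0.65, -0.42, -0.67 and -0.88 in batches 1 to 4. FL-NfL against CC-NfL gave -0.64 ± 0.47 (adjusted p = 0.472, and 0.0399 with the block). Without CC-NfL replicate 3 that value was -0.26, and without FL-NfL replicate 2 it was -0.40. CC-NfL against vehicle gave -0.03 ± 0.47 without the block (95% interval -1.08 to 1.03). That interval leaves room for a change of over 2-fold either way. The block gave 0.03 ± 0.20 (edgeR adjusted p = 0.959), with a smaller standard error.

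Cd86 reads outnumbered Cd80 reads throughout. The log2 ratio of Cd86 to Cd80 reads averaged 3.96 ± 0.84 with FL-NfL, 3.53 ± 0.53 with CC-NfL and 3.73 ± 0.60 with vehicle (SD, n = 4 each). The 3 pairs of groups gave p = 0.429 to 0.714 in exact two-sided permutation tests (adjusted p = 0.743), and no shift between the 2 ligands was detectable beside the spread between libraries.

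Icosl (ENSMUSG00000000732, chr10:78069302-78083913, plus strand), the gene of ICOS ligand, had group means that differed by less than the spread between libraries. It had 17.7, 18.9, 29.3 and 23.3 CPM with FL-NfL, 13.3, 27.2, 27.7 and 25.8 CPM with CC-NfL, and 13.6, 23.3, 31.2 and 21.01 CPM with vehicle. The groups overlapped, and batch 1 was the lowest of each. The log2 fold change was 0.00 ± 0.27 for FL-NfL against vehicle (95% interval -0.62 to 0.62) and 0.08 ± 0.27 for CC-NfL against vehicle (-0.54 to 0.69), with no call under any setting tried.

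**Figure D3:**
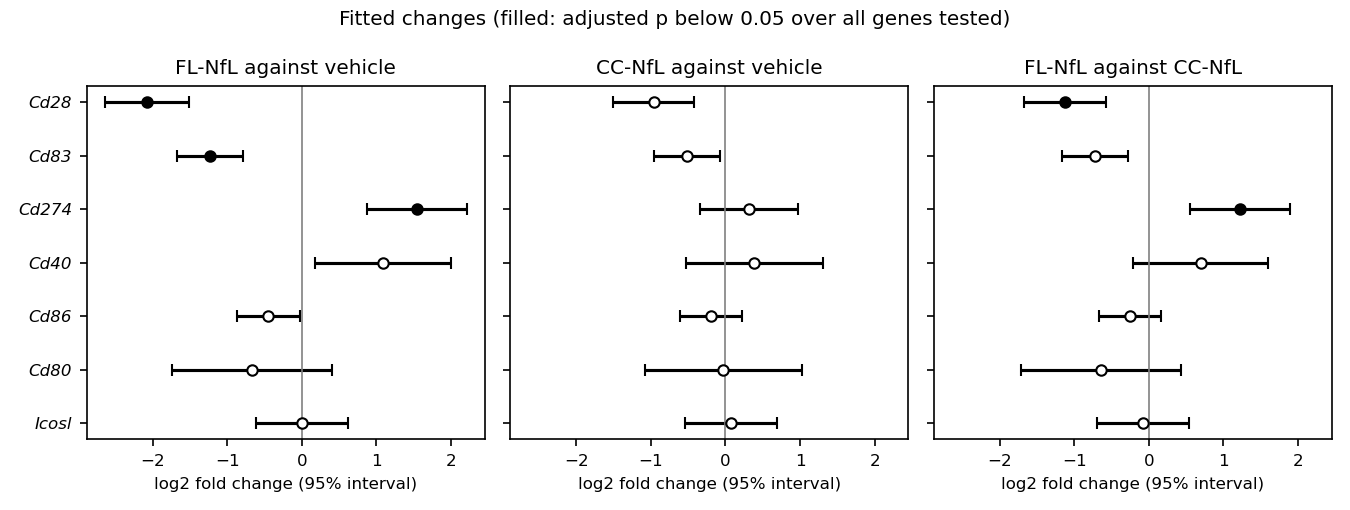
Fitted log2 fold changes (horizontal axis) with 95% intervals for the 7 tested genes in FL-NfL against vehicle, CC-NfL against vehicle and FL-NfL against CC-NfL; filled points have an adjusted p below 0.05 over all 14687 genes. Cd28, Cd83 and Cd274 are filled against vehicle for FL-NfL, no gene is filled for CC-NfL, and Cd28 and Cd274 are filled between the NfL forms.

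The comparisons of the 2 NfL forms with vehicle share the same vehicle libraries, so their values are given side by side and not as support of each other. For Cd28 they were -2.08 with FL-NfL and -0.96 with CC-NfL, for Cd83 -1.23 and -0.51, for Cd274 1.54 and 0.32, and for Cd40 1.09 and 0.39. In CC-NfL against vehicle, 2 of the 7 genes (Cd28 and Cd83) had an unadjusted p below 0.05, as had 1082 of all 14687 genes (7.37%). The edgeR test called 0 genes of the whole table there, limma voom 0, DESeq2 17 and edgeR with the block 2, none of them among these 7.

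**Figure D4:**
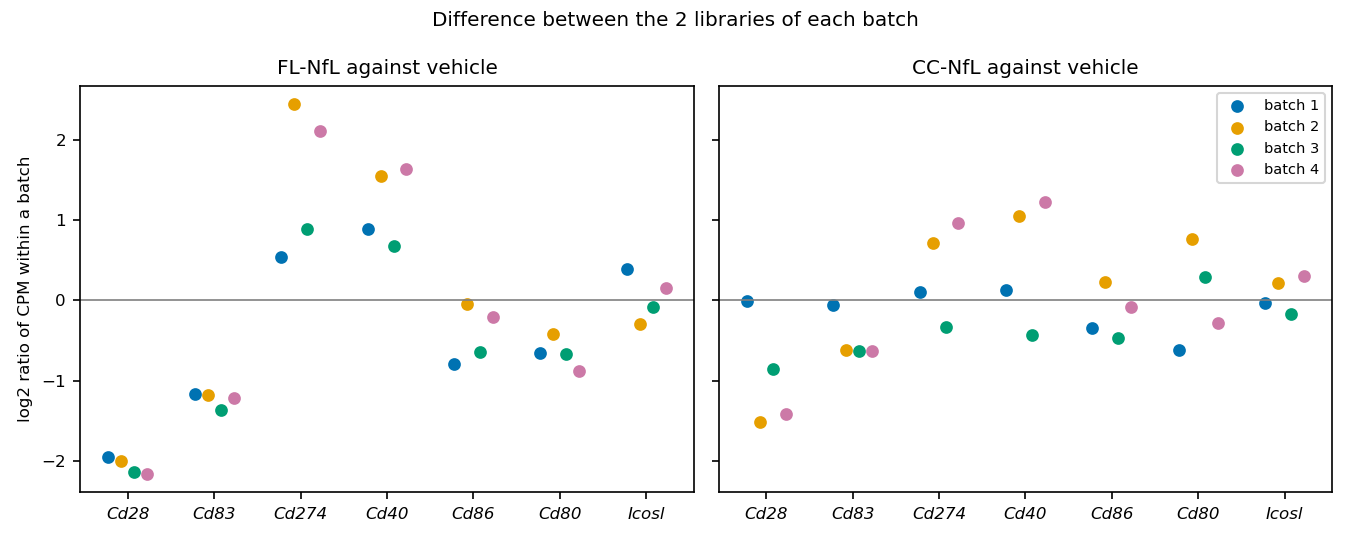
Log2 ratio of TMM-scaled CPM (vertical axis) between the FL-NfL and the vehicle library (left) and between the CC-NfL and the vehicle library (right) of each of the 4 batches, for the 7 tested genes. With FL-NfL, Cd28 and Cd83 sit between -2.16 and -1.16 in every batch, and Cd274 spreads from 0.54 to 2.44.

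Treatment and batch took different shares of the variation of each gene. Of the sum of squares of log2 CPM over the 12 libraries, treatment held 85.7% for Cd28, 77.6% for Cd83 and 70.8% for Cd274. Batch held 83.7% for Icosl and 71.8% for Cd80. Cd40 was split evenly, with 42.9% by each, and Cd86 had 32.1% by treatment and 46.6% by batch. These shares are a description without a test.

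**Figure D5:**
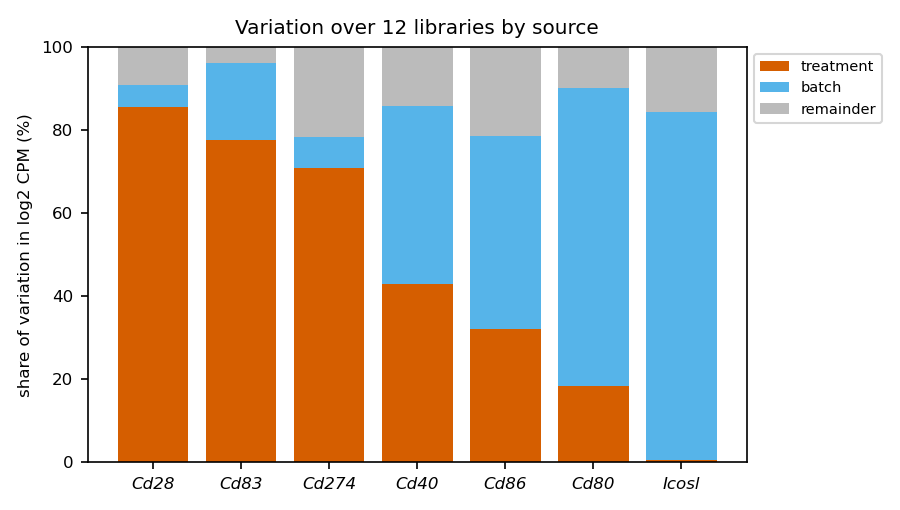
Share of the variation in log2 CPM over the 12 libraries (vertical axis, percent) held by treatment, by batch and by the remainder, for the 7 tested genes. Treatment holds the largest share in Cd28 (85.7%) and the smallest in Icosl (0.673%).

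Markers of other cells were read beside these results. Over all genes, 24.9% were called in FL-NfL against vehicle (14.0% higher, 10.9% lower), and 43.8% with the block (21.4% higher, 22.4% lower). The summed level of the 5 neuron markers was 7.45 to 25.4 CPM with FL-NfL, 12.6 to 39.4 CPM with CC-NfL and 15.8 to 52.5 CPM with vehicle, with 1 of 5 called lower in FL-NfL against vehicle (5 of 5 with the block). The summed level of the 5 border macrophage markers was 317.5 to 634.7 CPM with FL-NfL, 480.7 to 1093 CPM with CC-NfL and 680.0 to 1278 CPM with vehicle, most of it Mrc1 (421.2, 654.0 and 805.4 CPM in the same order of groups), with 1 of 4 tested genes called lower in FL-NfL against vehicle (1 higher and 2 lower with the block). The dendritic cell list, a cell type rich in these ligands, summed to 45.0 to 78.4 CPM with FL-NfL, 22.3 to 52.1 CPM with CC-NfL and 20.9 to 27.3 CPM with vehicle. Most of that was Fscn1 (58.2, 32.7 and 19.2 CPM), an actin-bundling protein. Of the other genes of that list, Flt3 and Ccr7 had 0 to 5 reads per library and Cd209a had 0. Zbtb46 had 40 to 93 reads per library and Batf3 had 19 to 70, and both passed the filter. In all, 4 of the 10 dendritic cell genes passed the filter and 2 rose with FL-NfL against vehicle, Fscn1 (log2 fold change 1.60) and Xcr1 (1.47). Of the B cell list 1 of 6 genes passed the filter, Cd79b, which rose (1.56). That list summed to 1.04 to 1.90 CPM with FL-NfL, 0.806 to 1.66 CPM with CC-NfL and 0.692 to 1.35 CPM with vehicle. No astrocyte, fibroblast, monocyte or neutrophil marker was called in any comparison without the block, and 1 oligodendrocyte marker, Mag, was called higher in FL-NfL against vehicle. With the block, FL-NfL against vehicle called lower 4 of 6 tested astrocyte markers, 1 of 3 fibroblast and 1 of 2 monocyte or neutrophil markers. Of 4 tested oligodendrocyte markers it called 1 higher and 2 lower, and of 4 tested dendritic cell genes 3 higher and 1 lower. With the block, FL-NfL against CC-NfL called 19.1% of all genes (8.99% higher, 10.1% lower). It called lower 2 of 6 tested astrocyte, 1 of 3 fibroblast, 1 of 4 border macrophage and 2 of 5 neuron markers. Of the 4 tested dendritic cell genes it called 3 higher and 1 lower, and the 1 tested B cell gene was higher. The part of these cells in the results was not tested. In bulk RNA, fewer cells of a type and less RNA per cell cannot be told apart.

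The wider set of ligands through which presenting cells steer T cells moved both ways with FL-NfL. Of 25 genes, 18 passed the filter, 4 rose and 4 fell against vehicle (7 and 6 with the block), with a median log2 fold change of 0.07. Over all 14687 genes 24.9% were called (14.0% higher, 10.9% lower), and 43.8% with the block, with a median of -0.02. Pvr, a ligand of the receptors TIGIT and CD226, rose by 0.93 ± 0.20, to 30.3 ± 10.3 CPM with FL-NfL against 15.9 ± 1.28 CPM with vehicle (adjusted p = 0.00618). Lgals9, the gene of galectin-9, rose by 0.82 ± 0.22, to 456.2 CPM with FL-NfL against 258.1 CPM with vehicle, a call lost without vehicle replicate 1 or 4 (0.71 and 0.72). Nectin2 rose by 0.52 ± 0.15, a call lost without vehicle replicate 2 or 4 or FL-NfL replicate 2 or 3 (0.43 to 0.52).

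Nectin3 fell, with a log2 fold change of -1.03 ± 0.22 (3.37 CPM with FL-NfL, 6.87 CPM with vehicle). Vsig4, a complement receptor that inhibits T cells, had -1.41 ± 0.34 and a low level (0.477 CPM with FL-NfL, 1.29 CPM with vehicle). Cd276, which encodes B7-H3, had a change of -1.67 ± 0.46, called except without vehicle replicate 1, 2 or 4 or FL-NfL replicate 3 or 4 (-1.60 to -1.48). The 2 further calls lie outside the naming rule and were named after their values were seen. Tnfrsf14 had 0.67 ± 0.23 (lost in 8 of the 12 fits without 1 library, 0.53 to 0.73), and the checkpoint ligand Vsir, or VISTA, had -0.31 ± 0.10 (lost in 6, -0.32 to -0.25). Vsir was among the abundant genes of the list, at 369.8 CPM with FL-NfL, 396.1 CPM with CC-NfL and 459.1 CPM with vehicle. The same list had no call in CC-NfL against vehicle or in FL-NfL against CC-NfL (3 higher and 5 lower with the block).

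Below CD40 and the other TNF receptors, 18 signalling genes were all tested, and 3 rose and 1 fell with FL-NfL against vehicle (3 and 3 with the block), with a median of 0.11. The calls, 4 of 18 and with the block 6 of 18, were no larger a share than the 24.9% and 43.8% of all genes. Traf1, an adaptor of these receptors, rose by 2.19 ± 0.35, to 11.4 ± 4.06 CPM with FL-NfL against 2.49 ± 1.18 CPM with vehicle (adjusted p = 0.00174). Traf2 rose by 0.60 ± 0.16. Birc3 rose by 0.60 ± 0.19, a call lost without vehicle replicate 2 or 4 or FL-NfL replicate 2 or 3 (0.48 to 0.58). Traf6, an adaptor that binds CD40, fell by 0.35 on the log2 scale (38.5 CPM with FL-NfL, 49.0 CPM with vehicle). The genes of NF-kB subunits (Nfkb1, Nfkb2, Rela, Relb, Rel) had values of -0.19 to 0.23, and none of them was called in the model without the block.

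Interferon-gamma and the JAK-STAT pathway are known inducers of Cd274 and Cd40. Of 16 genes of that pathway, all tested, 2 rose and 2 fell with FL-NfL against vehicle (6 and 3 with the block), with a median of 0.04. Without the block the share called, 4 of 16, was about that of all genes (24.9%). With the block, the 6 higher and 3 lower of 16 stood beside 43.8% of all genes (21.4% higher, 22.4% lower). The values that follow are those of single genes. The kinase gene Jak2 rose by 0.48 ± 0.09 (116.2 CPM with FL-NfL, 83.1 CPM with vehicle). The feedback inhibitor Socs3 rose by 1.01 ± 0.31, a call lost without FL-NfL replicate 1, 2 or 3 or vehicle replicate 2 or 4 (0.83 to 1.00). The receptor chain gene Ifngr1 fell, with 188.3 CPM with FL-NfL, 263.2 CPM with CC-NfL and 267.0 CPM with vehicle and a log2 fold change of -0.50 ± 0.11 against vehicle. Against CC-NfL it was -0.48 ± 0.11 (adjusted p = 0.0417), a call lost in 8 of the 12 fits without 1 library (vehicle replicate 1, 2 or 4, FL-NfL replicate 2 or 4, CC-NfL replicate 1, 3 or 4; -0.50 to -0.41). Ifnar2 had -0.26 ± 0.08, lost without any vehicle library or without FL-NfL replicate 1 or 4 (-0.27 to -0.20). Irf1, a known activator of the gene of PD-L1 in human cells, had a log2 fold change of -0.05.

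Of 8 genes that set how long these proteins last at the surface, all tested, 2 rose and 1 fell with FL-NfL against vehicle (3 and 2 with the block), beside 24.9% of all genes (43.8% with the block). Cmtm4, a partner that stabilises PD-L1, fell, with -0.43 ± 0.08 (86.3 CPM with FL-NfL, 116.3 CPM with vehicle). March8, a ubiquitin ligase for MHC class II and CD86, rose by 0.31 ± 0.08, and Stub1 rose by 0.45 ± 0.13, a call lost without vehicle replicate 1, 2 or 4 or FL-NfL replicate 1, 2 or 4 (0.38 to 0.46). March1, the ligase that CD83 opposes, averaged 156.5 CPM with FL-NfL, 120.6 CPM with CC-NfL and 119.1 CPM with vehicle, at 0.39 (adjusted p = 0.269). The MHC class II genes, which carry the antigen signal that costimulation completes, were read beside them. Cd74, the invariant chain, averaged 26.6 CPM with FL-NfL, 42.5 CPM with CC-NfL and 38.4 CPM with vehicle, and H2-Ab1, a class II chain, 1.40, 1.75 and 1.92 CPM in the same order of groups. Ciita, with 0 to 43 reads per library, averaged 0.151, 0.717 and 0.925 CPM, at -2.47 in FL-NfL against vehicle (edgeR adjusted p = 0.0925). None of the 6 class II genes tested was called in any comparison. With the block, 2 were lower in FL-NfL against vehicle, beside 43.8% of all genes called. In FL-NfL against CC-NfL 2 were lower with the block, beside 19.1% of all genes.

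The genes most like each member were taken from 9215 genes of at least 5 CPM, as those with the smallest mean absolute difference of log2 CPM over the 12 libraries, after each gene was centred on its own mean. For Cd28 they were Rdh10, Trf and Rcbtb2, at 0.21, 0.25 and 0.27, where the median gene stood at 0.81. For Cd83 they were Il6st, Kitl and Rnf144b at 0.17 to 0.18, against a median of 0.50. For Cd274 they were Ms4a6d (0.20), Gadd45b (0.22) and Cd244a (0.24), against 0.58. For Cd40 they were Ms4a6b, Ms4a6c and Il21r at 0.14 to 0.16, against 0.63; the Ms4a6 genes are close relatives among which short reads may be shared. Cd86 had Zfp385a, Mapkapk3 and Mid1ip1 (0.09 to 0.12), and Icosl had Gbp9, Nmral1 and Nemp1 (0.11 to 0.12). Cd83 itself stood at rank 67 of 9215 for Cd28 (0.42), and Cd28 at rank 1558 for Cd83. The 12 libraries share batches and treatments, so likeness of this kind says nothing of shared control.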

How the data were processed

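RNA sequencing (stranded kit for polyadenylated RNA, single reads of 50 bases) covered 12 libraries. The deposited file holds raw read counts per Ensembl gene; per the submitters' processing notes, reads were aligned to GRCm38 with GSNAP. What counted the reads, with which annotation and strand, is not given in the sources used here, nor is the aligner's version. Of 52636 identifiers, 99.72% had a GENCODE M21 symbol. Genes were kept with filterByExpr (R 4.3.3, edgeR 4.0.16), leaving 14687 genes with 99.93% of the counts, and scaled by TMM. One edgeR quasi-likelihood model of 3 groups (9 residual degrees of freedom) gave two-sided p-values, adjusted by Benjamini-Hochberg over all tested genes (threshold 0.05). Standard errors come from the F statistic and 95% intervals from the t quantile at 9 degrees of freedom. The script was tested on simulated data with known changes.

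Batch labels make replicate numbers pair the libraries: after group means were removed, the 12 same-numbered pairs correlated at 0.306 to 0.735 across genes, and the 36 others at -0.461 to 0.445. Alternatives were a replicate block, DESeq2 1.42.0, limma voom 3.58.1, upper-quartile scaling, other filters, a fit of 2 groups only and leaving out each library. All 8 members were named; from each list, up to 3 called genes per direction with the smallest p. Members, lists and rules were chosen with earlier results of these data known. Intervals and floors cover counting error or the spread between libraries only.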

Additional observations from a re-analysis of the deposited data

Results flagged for a closer look

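Among 21 sets of 4 libraries (7 genes in 3 groups), 3 held a library that Dixon's rule at the 95% level set apart from the other 3; chance alone sets apart about 1 in 20 groups. Cd40 in vehicle replicate 3 stood at 19.1 CPM, where the other vehicle libraries had 6.22 to 7.71 CPM. Without it the FL-NfL change against vehicle was 1.64 (log2), against 1.09 with it. Cd28 in vehicle replicate 1 stood at 64.2 CPM, where the others had 115.0 to 122.2 CPM, and the CC-NfL library of the same batch had 63.8 CPM. Icosl in CC-NfL replicate 1 stood at 13.3 CPM, where the others had 25.8 to 27.7 CPM, and the vehicle library of the same batch had 13.6 CPM.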

How the results depend on the processing

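Cd28, Cd83 and Cd274 were called in FL-NfL against vehicle under all 7 other settings and all 12 fits without 1 library. In that comparison the members called were 1 higher and 2 lower, 2 higher and 4 lower with the replicate block, and 2 higher with DESeq2; without single libraries 1 to 2 were higher and 2 lower. Over all genes the block gave 3148 higher and 3284 lower, and fits without 1 library 1392 to 2349 higher and 992 to 1735 lower (fewest lower without FL-NfL replicate 2, 992). In CC-NfL against vehicle the counts over all genes were 14 and 3 with DESeq2, 1 and 1 with the block, and 0 to 18 higher and 0 to 8 lower without 1 library (18 and 8 without CC-NfL replicate 1); members called stayed at 0 to 0 in both directions without 1 library. In FL-NfL against CC-NfL, members called higher were 0 with limma voom, 0 with only the 2 groups compared and 2 with the block; members called lower were 2 with DESeq2, 2 among genes of at least 5 CPM and 3 with the block. Without 1 library they were 0 to 1 higher and 0 to 2 lower. Over all genes that comparison gave 728 and 579 with DESeq2, 1321 and 1485 with the block, 85 and 83 with only those groups, 314 higher among genes of at least 5 CPM, and 14 to 324 higher and 18 to 277 lower without 1 library. The block, which pairs libraries of 1 batch, added Cd40, Cd86 and Cd80 against vehicle and Cd83, Cd40 and Cd80 against CC-NfL, and changed no other call of a member. The causes of these shifts were not tested.

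Values near 0 changed sign. Icosl in FL-NfL against vehicle was -0.054 with upper-quartile scaling, -0.0064 with DESeq2, -0.040 among genes of at least 5 CPM, -0.0029 in the fit of 2 groups and -0.17 to 0.21 without 1 library. In CC-NfL against vehicle Icosl ran from -0.10 to 0.28 without 1 library, Cd86 from -0.30 to 0.0035 and Cd80 from -0.40 to 0.22, with 0.027 for Cd80 with the block. In FL-NfL against CC-NfL Icosl ran from -0.26 to 0.027. The log2 ratio of Cd86 to Cd80 differed by 0.23 between FL-NfL and vehicle (-0.10 to 0.55 without 1 library), by -0.20 between CC-NfL and vehicle (-0.41 to 0.073) and by 0.43 between the NfL forms (0.10 to 0.75). That of Cd274 to Pdcd1lg2 differed by 0.37 (-0.14 to 0.92), by -0.27 (-0.77 to 0.27) and by 0.65 (0.14 to 1.14). With 5 reads added in place of 1, these differences were 1.04, 0.21 and 0.83 in the same order, so they depended on the number added. Within-batch tests of these ratios, the replicate block for them, gave p = 0.25 to 0.875 in an exact two-sided sign-flip test. With 4 pairs per comparison that test cannot give a p below 0.05, so it could not have detected a difference. Pdcd1lg2 was too shallow for a test.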
